A study of Homo sapiens with 32 samples.

Results

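The insulin-like growth factor (IGF) binding proteins form a family of 7 protein-coding genes, IGFBP1 to IGFBP7. They were taken from both count tables by gene symbol and a protein-coding annotation, 7 of 19815 protein-coding genes, and followed in all 32 libraries. Polysomal RNA-Seq had been performed in 2 human breast cell lines. MCF10A is a non-tumourigenic epithelial line grown in DMEM with 10% FBS, EGF (20 ng/mL), hydrocortisone (0.5 µg/mL), cholera toxin (100 ng/mL) and insulin (10 µg/mL). MDA-MB-231 is a triple-negative breast cancer line grown in DMEM with 10% heat-inactivated FBS, penicillin and streptomycin, without these factors. Cells were kept in normoxia (N), in hypoxia (H, 0.5% O2 for 24 h), in normoxia with the mTORC1 and mTORC2 inhibitor PP242 (NPP, 2.5 µM for 3 h), or in hypoxia with PP242 (HPP). Total (T) and polysome-bound (P) mRNA were sequenced from each, with 2 biological replicates in each of the 16 groups and 18340916 to 46032327 counts per library. The groups carried no engineered allele. Each line is a single established line, and each has its own count table. The added medium factors and the table cannot be told apart from the line in any comparison between MCF10A and MDA-MB-231.

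IGF1 and IGF2 are growth factors that act through the type 1 IGF receptor, whose substrates recruit PI3-kinase and act on the mTOR kinase that PP242 inhibits. IGFBP1 to IGFBP6 are secreted proteins that hold the IGFs with high affinity and limit or prolong their access to the receptor, and proteases release the growth factor by cutting the binding protein. IGFBP7 carries the same amino-terminal domain, binds IGFs weakly and binds insulin. Several of the genes are known to respond to low oxygen or to insulin signalling, IGFBP1 being the best described case. All values below are mRNA levels, and secreted protein was not measured.

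Levels are given as CPM, the usual scale on which a gene's counts are set against all protein-coding counts of its library, after TMM scaling within the line. A CPM is a share of the mRNA sequenced, so fewer cells that express a gene and less of its mRNA per cell cannot be told apart. A gene was called higher or lower where edgeR's quasi-likelihood test gave a Benjamini-Hochberg adjusted p under 0.05 over all genes tested, 13124 for MCF10A and 13510 for MDA-MB-231. Changes are log2 fold changes with their standard errors (SE).

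The labelled lines were compared with marker genes first. In the MCF10A libraries the basal keratins KRT5 and KRT14 had median levels of 1919 and 1543 CPM over 16 libraries, and in MDA-MB-231 they had 0 and 0.266 CPM. Other epithelial markers were near 0 in the libraries labelled MCF10A, with medians of 0.0785 CPM for CDH1, 0.303 CPM for EPCAM and 0.0402 CPM for TP63, so that 5 of 8 epithelial and basal markers exceeded 1 CPM. All 7 mesenchymal markers exceeded 1 CPM there, led by FN1 at 2951 CPM and VIM at 2620 CPM. In MDA-MB-231, VIM was at 3973 CPM and 5 of the 7 exceeded 1 CPM, but SPARC and CDH2 had 0.311 and 0.587 CPM, against 136 and 54.3 CPM in MCF10A. Of the epithelial and basal markers 3 of 8 exceeded 1 CPM in MDA-MB-231, where EPCAM had 12.8 CPM and LAMB3 344 CPM. Of the hormone receptors and HER2, ESR1 and PGR stood at 0.141 and 0.233 CPM in this line and ERBB2 at 38.0 CPM. Of 3 leukocyte markers, CD68 had 68.2 CPM in MCF10A and 91.5 CPM in MDA-MB-231, while PTPRC and CD3E lay under 1 CPM. Of 4 fibroblast markers 2 exceeded 1 CPM in each line, COL1A1 at 8.15 and 11.3 CPM and PDGFRB at 4.28 and 1.96 CPM. Of 2 endothelial markers, CDH5 lay under 1 CPM in both lines and PECAM1 had 0.699 and 1.36 CPM. The libraries labelled MCF10A are called so throughout, and the part of these marker levels in the results was not tested.

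Oxygen labels were compared with EGLN3, a gene induced by the HIF transcription factors. EGLN3 ranged from 0 to 0.358 CPM in the 8 normoxic MCF10A libraries and from 3.36 to 21.8 CPM in the 8 hypoxic ones. For MDA-MB-231 the ranges were from 3.11 to 8.23 CPM and from 11.9 to 41.7 CPM. The ranges did not overlap in either line. ADM and VEGFA, also induced by HIF, did not overlap in MCF10A, where ADM ranged from 22.8 to 51.8 CPM in normoxia and from 122 to 235 CPM in hypoxia. In MDA-MB-231 both overlapped, ADM with 47.2 to 117 CPM and 67.3 to 143 CPM and VEGFA with 153 to 301 CPM and 228 to 433 CPM. In TMM scaling, 3 MCF10A libraries had factors below the 0.889 to 1.13 of the rest, namely NPP total replicate 2 at 0.764, N polysomal replicate 1 at 0.808 and HPP total replicate 2 at 0.826.

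Of the 7 members, 2 pairs are neighbours in the genome (GRCh38, GENCODE v44). IGFBP1 (chr7:45888360-45893660, plus strand) lies 18584 bases from IGFBP3 (chr7:45912245-45921874, minus strand), and IGFBP2 (chr2:216632828-216664436, plus strand) lies 7668 bases from IGFBP5 (chr2:216672105-216695549, minus strand). IGFBP4 (chr17:40443450-40457725, plus strand), IGFBP6 (chr12:53097436-53102345, plus strand) and IGFBP7 (chr4:57030773-57110385, minus strand) stand alone. Of the chromosome 7 pair, IGFBP3 passed the filter on low counts in both lines and IGFBP1 in MDA-MB-231 alone.

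IGFBP3 and IGFBP6 were the members with a call against normoxia, so their start regions are shown. RefSeq windows (GRCh38.p14, 250 bases before to 50 after a start site) were found for 5 of the 7 members, in 7 windows, and not for IGFBP1 and IGFBP7. They were searched on both strands for the core of the HIF response element, ACGTG or GCGTG, and for the FOXO letters GTAAACA and CAAAACA. The IGFBP3 sequence covers the 250 bases before its start (chr7:45921273-45921522, minus strand), with GCGTG or its reverse complement CACGC in capitals. It overlaps no annotated exon and lies in an intron of 1 longer transcript.
IGFBP3: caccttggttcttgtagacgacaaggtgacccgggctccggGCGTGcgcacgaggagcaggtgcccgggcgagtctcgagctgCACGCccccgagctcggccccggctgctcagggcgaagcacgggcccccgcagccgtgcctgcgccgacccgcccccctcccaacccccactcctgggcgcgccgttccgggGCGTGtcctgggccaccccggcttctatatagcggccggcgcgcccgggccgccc
For IGFBP6 only 27 bases around a match are shown (chr12:53097471-53097497, plus strand), with GTAAACA in capitals, since they fall in the first exon of a longer IGFBP6 transcript.
IGFBP6: aatttgggaaGTAAACAgaaactggaa
In IGFBP3, GCGTG began at positions −209 and −55 from the start site and the reverse complement at −167. In IGFBP6, GTAAACA began at −186. Such letters are common, since ACGTG or GCGTG occurred in 48.4% of all 35116 windows and GTAAACA in 3.42%. The windows of IGFBP4 and IGFBP5 held none of the letters searched, and those of IGFBP2 held GCGTG at −132 and ACGTG at 31 bases after the start. A match is a description of the sequence and not a measured site.

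The 2 lines differed in the proportions of the members. In normoxia MCF10A contained mRNA of IGFBP3, IGFBP6, IGFBP7 and IGFBP4, and MDA-MB-231 contained mostly IGFBP4 and IGFBP7, with less IGFBP1, IGFBP3 and IGFBP6. Of the members, 4 of 7 passed the filter on low counts in MCF10A and 6 of 7 in MDA-MB-231. IGFBP1 had 0 to 2 counts in the 16 MCF10A libraries and 753 to 3990 in those of MDA-MB-231. IGFBP2, which binds IGF2 and integrins, had at most 3 counts in any MCF10A library and at most 1 in any MDA-MB-231 library. IGFBP5, a binding protein held in extracellular matrix, had 0 counts in 14 of 16 MCF10A libraries and 0 to 20 counts in MDA-MB-231. The largest upper limit that a count of 0 allowed in a library, 3 counts, was 0.126 CPM in MCF10A and 0.171 CPM in MDA-MB-231, which covers counting error only.

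**Figure D1:**
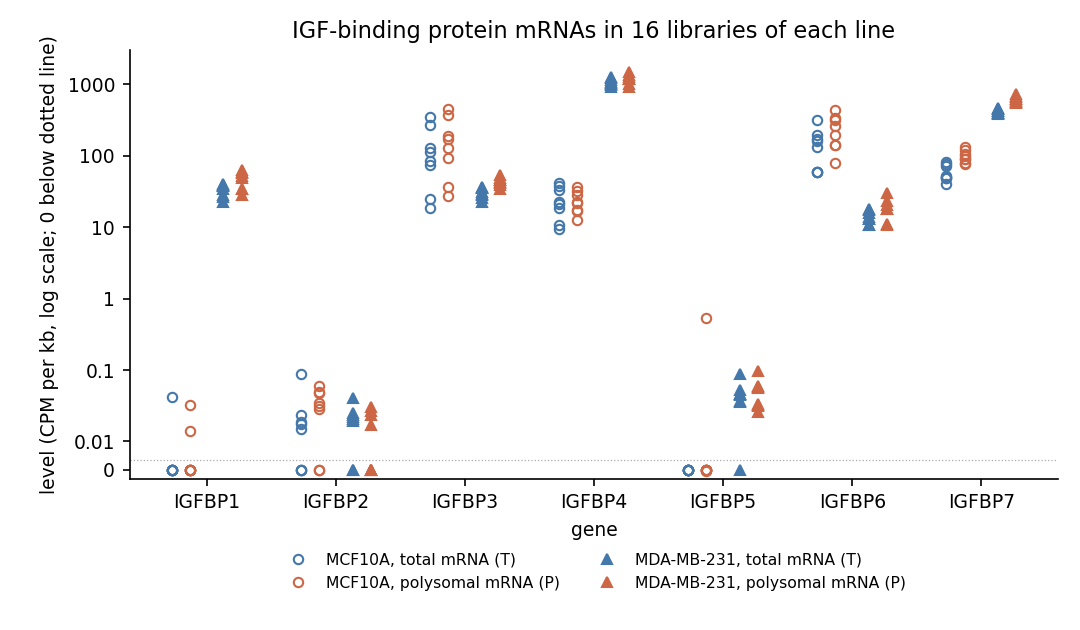
Levels of the 7 members in the 32 libraries of MCF10A and MDA-MB-231, in CPM per kb of the longest coding transcript on a log scale, 1 point per library, with counts of 0 below the dotted line. IGFBP1, IGFBP4, IGFBP6 and IGFBP7 separate the lines without overlap, while IGFBP2 lies near 0 in both lines.

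To compare members with each other, CPM was divided by the length of the longest coding transcript in kilobases. In total mRNA of normoxic MCF10A the order was IGFBP3 (79.7 ± 5.94 CPM per kb, SD, n = 2), IGFBP6 (59.6 ± 0.278), IGFBP7 (49.7 ± 0.358) and IGFBP4 (15.8 ± 7.32), and no neighbours in this order overlapped. In polysomal mRNA IGFBP6 (137 ± 82.7 CPM per kb), IGFBP3 (111.3 ± 23.8) and IGFBP7 (98.7 ± 30.3) overlapped and only IGFBP4 (17.2 ± 0.333) stood below them. In total mRNA of normoxic MDA-MB-231 the order was IGFBP4 (1126 ± 215 CPM per kb), IGFBP7 (412.5 ± 18.5), IGFBP1 (33.2 ± 9.19), IGFBP3 (30.0 ± 1.86) and IGFBP6 (12.3 ± 2.24). IGFBP1 and IGFBP3 overlapped there and the others did not. The length matters for IGFBP3, which with the mean length of its transcripts would reach 162 CPM per kb in MCF10A. For MDA-MB-231 it would reach 60.8 CPM per kb and then stand above IGFBP1 (35.6).

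The differences between the lines were large beside the spread of replicates. Across all genes, 40.7% of 14298 were called between the lines in total mRNA in normoxia and 45.4% in polysomal mRNA, so that a call is common in this comparison. The levels printed are scaled within each line and the folds come from the joint scaling of all 32 libraries, so a ratio of printed levels is not the fold. For IGFBP3 in total mRNA the mean levels gave a ratio of 2.66 and the joint fit 3.67, and the joint fit shifted the log2 difference of that gene by −0.47 in total and −0.31 in polysomal mRNA. All 8 tests of the 4 members measured in both lines were called, in the same direction in both fractions. IGFBP4, a binding protein that is cut by the protease PAPPA, had 23.5 and 46.3 CPM in the MCF10A total libraries in normoxia and 2818 and 2148 CPM in those of MDA-MB-231. It was 51.5-fold higher in MDA-MB-231 in total mRNA (log2 5.69, SE 0.57, adjusted p = 6.61e-08) and 56.9-fold in polysomal mRNA. IGFBP7 had 71.3 and 70.6 CPM in MCF10A and 607 and 570 CPM in MDA-MB-231, and was 6.01-fold and 5.23-fold higher in the same order of fractions (total: log2 2.59, SE 0.31, adjusted p = 7.08e-07). Library kits of the type used mark no strand, so reads of IGFBP7 and of its antisense gene IGFBP7-AS1 cannot be told apart, although IGFBP7-AS1 was assigned at most 1 count in MCF10A and 2 to 42 in MDA-MB-231.

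The opposite direction was measured for IGFBP3 and IGFBP6. IGFBP3, the main carrier of IGFs in blood, had 199 and 221 CPM in the MCF10A total libraries in normoxia and 82.3 and 75.4 CPM in those of MDA-MB-231. It was 3.67-fold lower in MDA-MB-231 in total mRNA (log2 −1.88, SE 0.22, adjusted p = 4.76e-07) and lower by a log2 of −1.70 in polysomal mRNA. IGFBP6, which prefers IGF2 over IGF1, had 70.4 and 70.0 CPM against 16.3 and 12.6 CPM. It was 6.69-fold lower in total mRNA (log2 −2.74, SE 0.49, adjusted p = 0.000126) and 9.80-fold lower in polysomal mRNA. In polysomal mRNA the log2 difference of IGFBP6, −3.29, was −2.54 without MCF10A normoxic replicate 1 and −3.91 without MDA-MB-231 normoxic replicate 1, and it was called in both cases. For IGFBP1 a fitted fold depends on the prior count, and against the floor of 3 counts per MCF10A library it was at least 389.5-fold higher in MDA-MB-231 in total mRNA and at least 433-fold in polysomal mRNA. No fold is given for IGFBP2, at or under the floor in both lines, or for IGFBP5, which was at 0 in the normoxic MCF10A libraries and was not called in the joint fit (adjusted p = 0.193 and 0.106).

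Summed over the 7 members per kb, the family amounted to 205 ± 12.6 CPM per kb (SD, n = 2) in total mRNA of normoxic MCF10A. In hypoxia the sum was 562 ± 121 CPM per kb, with PP242 215 ± 116 and with both 462 ± 123. IGFBP3 made up 38.5% to 39.2% of the sum in the normoxic total libraries and 53.3% to 56.8% in the hypoxic ones. With PP242 its share was 6.30% to 18.7%, and with both treatments 20.9% to 34.3%. In MDA-MB-231 the group means of the sum lay between 1479 and 2026 CPM per kb, and IGFBP4 held 58.9% to 72.6% of it in every library. The sums are descriptions and were not tested. They depend on the length used, and with the mean length of the transcripts of each gene the MCF10A total sums became 319.5 ± 18.6 CPM per kb in normoxia and 956 ± 196 in hypoxia.

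**Figure D2:**
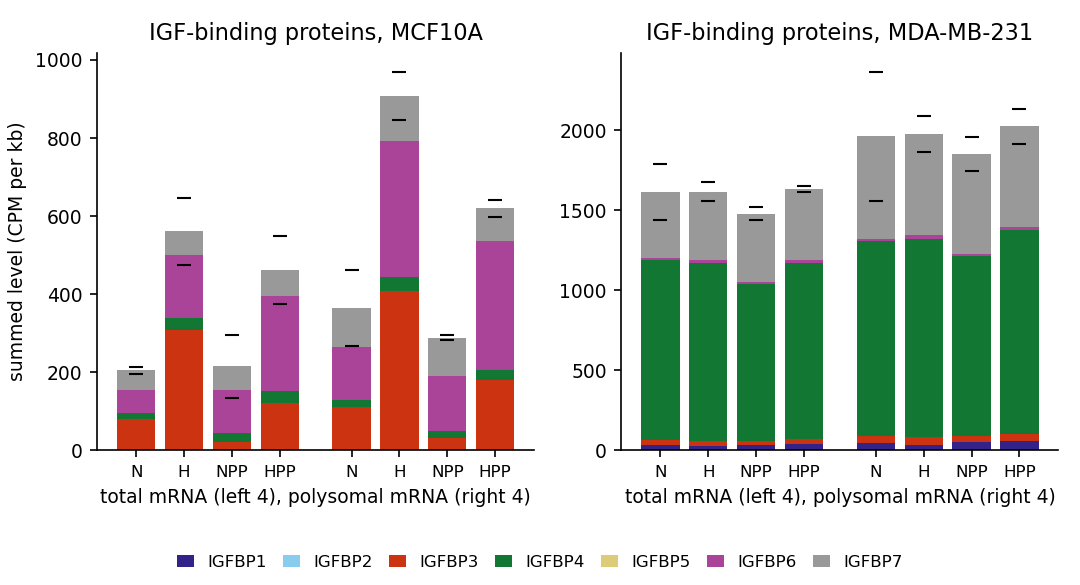
Mean level of each member in CPM per kb of its longest coding transcript, stacked by group (n = 2 libraries) on a linear axis from 0, with total and polysomal mRNA side by side, 1 panel per line, and black dashes for the sum in each library. IGFBP3 widens under hypoxia and narrows with PP242 in MCF10A, and IGFBP4 and IGFBP7 fill most of each bar in MDA-MB-231.

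The question of the treatments was which mRNAs change under hypoxia and mTOR inhibition in total and in polysomal mRNA. In MCF10A, 5 of 24 tests of 4 members against normoxia were called in the fit without a replicate block, and 4 of the 5 were of IGFBP3. Across all genes tested in MCF10A total mRNA, 1.54% were called in hypoxia, 0.648% with PP242 and 14.9% with both, and in polysomal mRNA 1.49%, 0.823% and 22.2%. IGFBP3 was called in hypoxia and with PP242, where calls were rare, and not with both, where they were frequent. IGFBP6 was called once.

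IGFBP3 rose in hypoxia and fell with PP242 in MCF10A. In total mRNA it had 199 and 221 CPM in normoxia, 712 and 907 CPM in hypoxia, 65.6 and 49.2 CPM with PP242 and 338 and 302 CPM with both. In polysomal mRNA it had 337 and 248 CPM, 971 and 1180 CPM, 97.9 and 73.2 CPM, and 498 and 449.6 CPM. In both fractions the libraries thus followed the order PP242, normoxia, hypoxia with PP242, hypoxia, without overlap between any 2 groups. Hypoxia raised the total mRNA 3.86-fold (log2 1.95, SE 0.27, adjusted p = 0.004) and the polysomal mRNA 3.67-fold (log2 1.88, SE 0.27, adjusted p = 0.00461). PP242 lowered it 3.65-fold in total mRNA (log2 −1.87, SE 0.27, adjusted p = 0.0152) and 3.42-fold in polysomal mRNA (log2 −1.78, SE 0.27, adjusted p = 0.0152). Among all MCF10A genes its change in total mRNA stood at percentile 97.65 in hypoxia and at percentile 0.724 with PP242. Of the identity markers, KRT14, KRT6A, COL1A1 and COL1A2 were also higher in all 8 hypoxic than in all 8 normoxic MCF10A libraries, with or without PP242. KRT14 ranged from 458 to 1417 CPM in normoxia and from 1669 to 4203 CPM in hypoxia, KRT6A from 16.4 to 45.98 CPM and from 97.6 to 250.04 CPM, and COL1A1 from 3.62 to 5.72 CPM and from 10.6 to 19.2 CPM. COL1A2 stayed near 0, from 0 to 0.126 CPM and from 0.187 to 1.08 CPM. Their part in the IGFBP3 result was not tested.

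**Figure D3:**
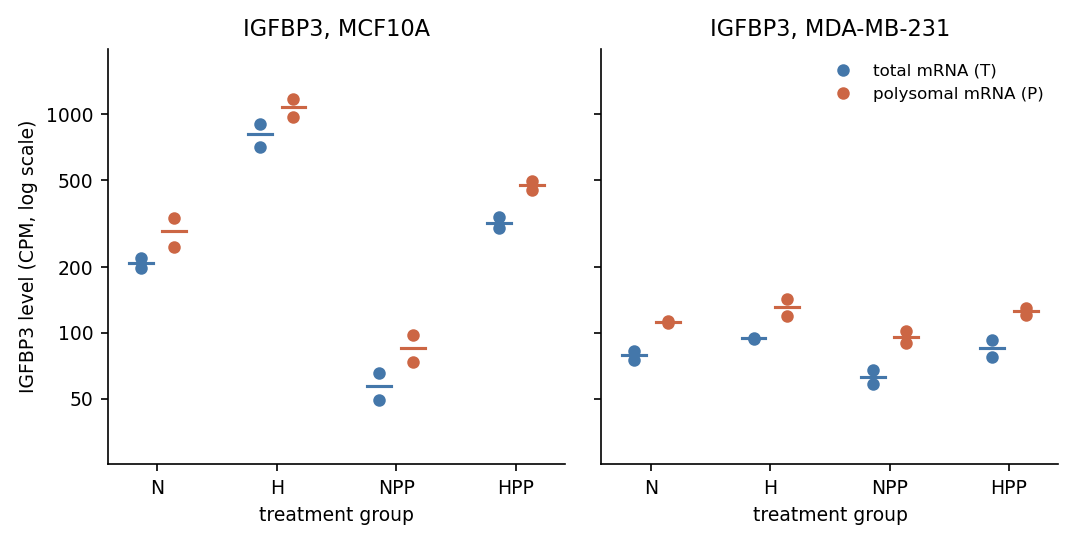
IGFBP3 in CPM on a log scale in each library by treatment, for total and polysomal mRNA of MCF10A and MDA-MB-231, with 2 replicates per group. In MCF10A the groups keep the order NPP, N, HPP, H in both fractions, from 49.2 to 1180 CPM, and in MDA-MB-231 all libraries lie between 58.5 and 143 CPM.

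With both treatments together IGFBP3 lay between its levels under either alone. Against hypoxia alone, 3.74% of MCF10A genes were called in total mRNA and 6.5% in polysomal mRNA, and against PP242 alone 4.17% and 7.44%. IGFBP3 was called in all 4 of these tests, and they were the 4 calls among 24 tests of the family, which include the departure from adding both single effects. It was 2.53-fold lower than in hypoxia alone in total mRNA (log2 −1.34, SE 0.27, adjusted p = 0.0175) and 2.27-fold lower in polysomal mRNA (log2 −1.18, SE 0.27, adjusted p = 0.0244). It was 5.57-fold higher than with PP242 alone in total mRNA (log2 2.48, SE 0.28, adjusted p = 0.000899) and 5.54-fold higher in polysomal mRNA (log2 2.47, SE 0.28, adjusted p = 0.000663). Against normoxia the combination gave a log2 change of 0.61 (SE 0.26, adjusted p = 0.15) in total mRNA and 0.69 (SE 0.27, adjusted p = 0.0818) in polysomal mRNA, which did not pass the threshold. DESeq2 called the polysomal change (0.71, adjusted p = 0.0377). For IGFBP3 this departure was 0.53 (95% interval −0.29 to 1.35) in total mRNA and 0.59 (−0.22 to 1.41) in polysomal mRNA, with an adjusted p of 1 for each. For this test 0% of the 13124 MCF10A genes were called by edgeR in either fraction, with 230 and 356 genes at an unadjusted p under 0.05.

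These IGFBP3 calls rest on 2 libraries per group. The hypoxia call in total mRNA was lost without either normoxic total library (adjusted p = 0.101 and 0.079, log2 1.87 and 2.02) and in polysomal mRNA without normoxic polysomal replicate 2 (adjusted p = 0.0792, log2 1.67). The PP242 call was lost in total mRNA without either normoxic library or PP242 replicate 2 (adjusted p = 0.113 to 0.165), and in polysomal mRNA without normoxic replicate 1 or either PP242 library (adjusted p = 0.0908 to 0.209). The difference between the combination and hypoxia alone was lost without any 1 of the 4 libraries compared, in either fraction. The difference between the combination and PP242 alone was kept without any single library in both fractions. A fit of only the libraries compared lost 5 of the 8 calls at nearly the same fold. They were hypoxia in polysomal mRNA (log2 1.95, adjusted p = 0.195), PP242 in total mRNA (−1.87, adjusted p = 0.907), the combination against hypoxia alone in total (−1.31, adjusted p = 0.197) and polysomal mRNA (−1.19, adjusted p = 0.0886), and the combination against PP242 alone in total mRNA (2.49, adjusted p = 0.638).

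IGFBP3 moved less in MDA-MB-231. In total mRNA it had 82.3 and 75.4 CPM in normoxia, 93.9 and 95.2 CPM in hypoxia, 67.6 and 58.5 CPM with PP242 and 93.0 and 77.5 CPM with both. In polysomal mRNA it had 110.6 and 113 CPM, 143 and 119 CPM, 89.9 and 102.2 CPM, and 129.5 and 121 CPM. The hypoxic libraries lay above and the PP242 libraries below the normoxic ones in both fractions, by small margins. The change in hypoxia was 0.26 on the log2 scale (95% interval −0.04 to 0.56, adjusted p = 0.48) in total mRNA and 0.23 (−0.07 to 0.53, adjusted p = 0.437) in polysomal mRNA. With PP242 it was −0.32 (−0.63 to −0.02, adjusted p = 0.446) and −0.22 (−0.52 to 0.08, adjusted p = 0.564).

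The response of IGFBP3 differed between the lines, as tested in a joint fit of all 32 libraries. The log2 change in hypoxia was smaller in MDA-MB-231 by −1.65 (SE 0.30, adjusted p = 0.0164) in total mRNA and by −1.74 (SE 0.30, adjusted p = 0.00943) in polysomal mRNA. The fall with PP242 was smaller, with a difference of 1.61 (SE 0.30, adjusted p = 0.0472) in total mRNA and 1.59 (SE 0.30, adjusted p = 0.032) in polysomal mRNA. Such differences were rare, with 0.266% and 0.329% of all genes called for hypoxia in total and polysomal mRNA and 0.056% and 0.126% for PP242. For the combination, with 3.31% and 3.6% of genes called, IGFBP3 gave −0.40 (adjusted p = 0.597) and −0.55 (adjusted p = 0.374). These were the 4 calls among 24 tests of the 4 members measured in both lines. Leaving out 1 library at a time, the hypoxia difference was lost without 6 of the 32 libraries in total mRNA (adjusted p up to 0.133) and without 3 in polysomal mRNA (up to 0.113). The PP242 difference was lost without 26 of the 32 in total mRNA (up to 0.405) and without 11 in polysomal mRNA (up to 0.319). In total mRNA it was also lost with RLE size factors (adjusted p = 0.075), without the filter on low counts (0.0726) and with all gene classes (0.0825), and in polysomal mRNA with all gene classes (0.0639). A fit of only the libraries compared kept the hypoxia difference in total mRNA and lost it in polysomal mRNA (adjusted p = 0.311) along with the PP242 differences in total (1) and polysomal mRNA (0.303).

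IGFBP6 had the other call against normoxia in MCF10A. In total mRNA it had 70.4 and 70.0 CPM in normoxia, 157 and 227 CPM in hypoxia, 69.0 and 191 CPM with PP242 and 206 and 372 CPM with both. The 4 hypoxic total libraries lay above the normoxic ones. The PP242 replicates lay far apart, with the higher value in the library with the lowest TMM factor. The higher value with both treatments came from HPP replicate 2, whose TMM factor of 0.826 was also low. The part of these factors in the result was not tested. IGFBP6 rose 4.12-fold with both treatments in total mRNA (log2 2.04, SE 0.53, adjusted p = 0.0235). In hypoxia alone its change was 1.45 (SE 0.52, adjusted p = 0.283) and did not pass, although a fit of only the 4 libraries compared called it (1.46, adjusted p = 0.0107). In polysomal mRNA it had 231 and 92.9 CPM in normoxia, 514 and 309 CPM in hypoxia, 166 and 165 CPM with PP242 and 402 and 376 CPM with both. The hypoxic libraries lay above the normoxic ones there too, and the changes of 1.35 (SE 0.52, adjusted p = 0.288) in hypoxia and 1.27 (SE 0.52, adjusted p = 0.101) with both did not pass. The total mRNA call was lost without HPP replicate 2 (log2 1.55, adjusted p = 0.172) or without either normoxic library (adjusted p = 0.144 and 0.157).

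A fit with the replicate number as a block within each fraction gave more calls in MCF10A, 8 of 24 in place of 5. The gained ones were IGFBP6 in polysomal mRNA (log2 1.37, adjusted p = 0.0146), IGFBP4 in total mRNA (0.87, adjusted p = 0.038) and IGFBP3 in polysomal mRNA (0.70, adjusted p = 0.0461), each for the combination. Of the polysomal correlations between same-numbered replicates 3 of 6 exceeded 0.1. Of those between total libraries 6 of 6 did, so the pairing was accepted for the IGFBP4 gain and not for the 2 polysomal ones. The polysomal change of IGFBP6 was also called without either PP242 total library (adjusted p = 0.0457 and 0.0442). Outside the tests against normoxia the same fit also called IGFBP6 in polysomal mRNA of the combination against PP242 alone (1.22, adjusted p = 0.0402), which had an adjusted p of 0.176 without the block and 0.0108 in a fit of only the libraries compared.

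IGFBP4 and IGFBP7 had no call in MCF10A without that block. IGFBP4 had 23.5 and 46.3 CPM in the normoxic total libraries, 50.5 and 82.9 CPM in hypoxia, 20.9 and 74.5 CPM with PP242 and 40.5 and 90.5 CPM with both. Replicate 2 was the higher one in every total group, and the groups with PP242 overlapped the normoxic one. In polysomal mRNA, where replicates were closer, it had 37.4 and 38.4 CPM in normoxia, 70.5 and 80.5 CPM in hypoxia, 28.1 and 50.3 CPM with PP242 and 47.6 and 61.8 CPM with both. Its change in hypoxia was 0.93 (SE 0.57, adjusted p = 0.679) in total and 0.99 (SE 0.57, adjusted p = 0.549) in polysomal mRNA. IGFBP7 ranged from 57.5 to 117 CPM over all total libraries and from 110.2 to 189 CPM over all polysomal ones, and its changes against normoxia lay between −0.22 and 0.38.

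**Figure D4:**
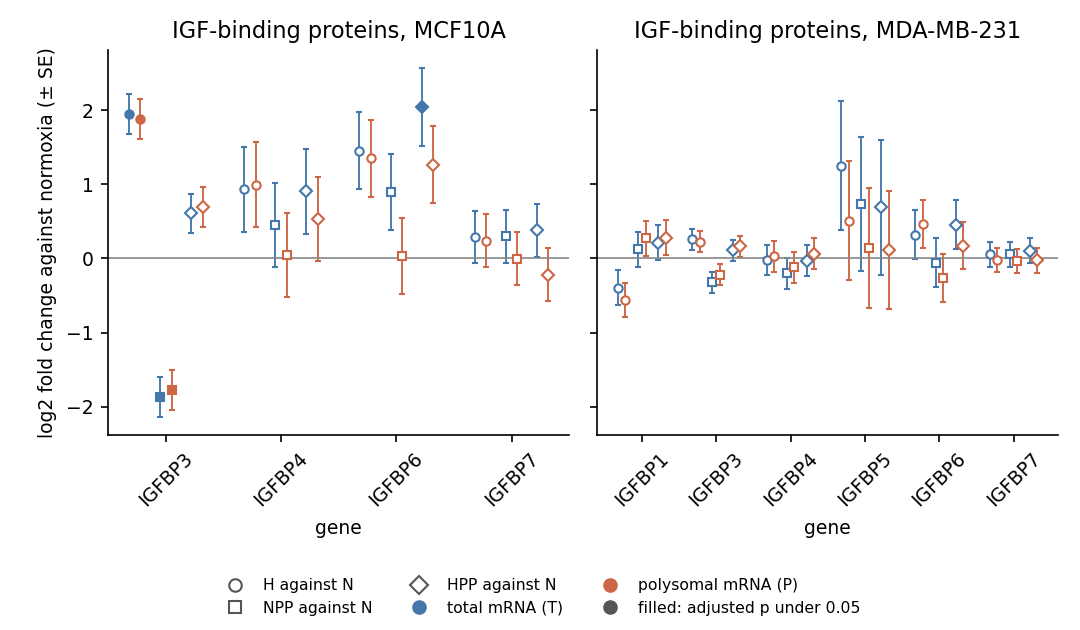
Log2 fold change against normoxia of each tested member with its SE, by treatment, fraction and line, with filled points for adjusted p under 0.05 without a replicate block. Filled points are those of IGFBP3 in hypoxia and with PP242 and of IGFBP6 with both in total mRNA, all in MCF10A.

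In MDA-MB-231 no member was called against normoxia. Of 36 tests by edgeR's quasi-likelihood test and by DESeq2, 0 were called, 2 had an unadjusted p under 0.05, and the lowest adjusted p was 0.236. The background was 1.27%, 0.555% and 13.2% of genes called in total mRNA for hypoxia, PP242 and both, and 2.29%, 1.95% and 19.4% in polysomal mRNA. The abundant members had narrow intervals. IGFBP4 had 2818 and 2148 CPM in the normoxic total libraries, 2683 and 2215 CPM in hypoxia, 2300.3 and 2014 CPM with PP242 and 2356 and 2506 CPM with both, so that every group overlapped the normoxic range. Its changes lay between −0.20 and 0.07, and the 95% interval in hypoxia was −0.46 to 0.42 in total mRNA. IGFBP7 lay between 548 and 676 CPM in all total libraries, with an interval in hypoxia of −0.30 to 0.41, and between 779.5 and 1045 CPM in the polysomal ones. IGFBP6 lay between 12.5 and 35.0 CPM over all libraries. IGFBP5 passed the filter with at most 20 counts, and its interval in hypoxia of −0.61 to 3.12 in total mRNA sets no useful limit.

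IGFBP1, a binding protein whose gene is known to be repressed by insulin and induced by low oxygen in liver cells, was measured in MDA-MB-231 alone. In polysomal mRNA it had 92.9 and 55.5 CPM in normoxia, 55.3 and 45.2 CPM in hypoxia, 100.4 and 78.3 CPM with PP242 and 84.9 and 95.1 CPM with both. The hypoxic libraries were the lowest, and both libraries of the combination lay above both of hypoxia alone. With PP242 added to hypoxia, where 11.5% of all genes were called, IGFBP1 was 1.79-fold higher (log2 0.84, SE 0.23, adjusted p = 0.0327). This was the 1 call among 36 tests of the same kinds in this line. The other backgrounds of these tests were 3.78% and 2.72% of genes called in total mRNA against hypoxia and against PP242 alone, 3.55% in polysomal mRNA against PP242 alone, and 0.0074% in either fraction for the departure from adding both effects. In total mRNA it had 35.9 and 45.4 CPM in hypoxia and 62.6 and 60.8 CPM with both, a difference of 0.61 (SE 0.24, adjusted p = 0.179). Without the filter on low counts IGFBP1 also passed in total mRNA (log2 0.65, adjusted p = 0.0202). Against normoxia, with 63.6 and 42.8 CPM in total mRNA, its changes in hypoxia were −0.39 (SE 0.24, adjusted p = 0.54) in total and −0.56 (SE 0.23, adjusted p = 0.236) in polysomal mRNA. The call was lost without any 1 of the 4 libraries compared or of the 2 total libraries of the combination, with adjusted p values from 0.0526 to 0.217.

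Translation efficiency (Te) was taken as the change in polysomal mRNA minus that in total mRNA. In the sample titles the total and polysomal library of a treatment and replicate share a number. Whether that number marks a single culture is not said. The 2 libraries were treated as separate here and in the comparison of the fractions in normoxia below. A fit of Te with a term shared by both libraries of a number called 0 of 12 tests in MCF10A and 0 of 18 in MDA-MB-231. That term was not used for the comparison in normoxia. No member had a called Te change in either line. In MCF10A 0 of 12 tests were called and in MDA-MB-231 0 of 18, by edgeR and by DESeq2, and 0 had an unadjusted p under 0.05. The z-score rule, taken here over the Te changes of all genes tested, also called 0. It requires a called polysomal change against normoxia, so it could call no member in MDA-MB-231. In MCF10A it could call IGFBP3 alone, in hypoxia and with PP242. The background was low as well, with 0 of 13124 genes called for each treatment in MCF10A, where 23, 296 and 433 genes had an unadjusted p under 0.05 for hypoxia, PP242 and both. In MDA-MB-231 0.0148%, 0.34% and 0.696% of genes were called. For IGFBP3 in MCF10A the Te change in hypoxia was −0.07 (95% interval −0.89 to 0.74), beside rises of 1.95 in total and 1.88 in polysomal mRNA. For IGFBP6 the Te changes of −0.10, −0.86 and −0.78 had intervals that reached from −2.43 to 1.47.

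Polysomal libraries were also compared with total libraries in normoxia. This gives the level of an mRNA on polysomes relative to other genes, and not the share of that mRNA on polysomes. In MDA-MB-231, where 13.1% of genes were called, 2 of 6 members were relatively higher in polysomal mRNA. IGFBP7 was higher by a log2 of 0.63 (SE 0.17, adjusted p = 0.0247), from 607 and 570 CPM to 1045 and 779.5 CPM. IGFBP3 was higher by 0.50 (SE 0.14, adjusted p = 0.0328), from 82.3 and 75.4 CPM to 110.6 and 113 CPM. The groups did not overlap for either gene. In a fit of only the libraries compared the IGFBP3 call was lost at nearly the same value (log2 0.49, adjusted p = 0.0594) and the IGFBP7 call was kept. In MCF10A 0 of 4 members were called by edgeR or DESeq2 and 2 had an unadjusted p under 0.05, namely IGFBP6 (2.30-fold, adjusted p = 0.37) and IGFBP7 (1.98-fold, adjusted p = 0.34), in a comparison where 0 genes were called and 1660 had an unadjusted p under 0.05. Of the MDA-MB-231 calls, that of IGFBP7 was lost without N polysomal replicate 1 (log2 0.38, adjusted p = 0.226) or without either normoxic total library, and that of IGFBP3 without any 1 of 6 libraries (log2 0.44 to 0.58, adjusted p = 0.0517 to 0.167).

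The members did not follow a single pattern. Over the 16 MCF10A libraries, Pearson's r of log2 CPM was 0.545 between IGFBP3 and IGFBP6 and 0.700 between IGFBP4 and IGFBP6, and 0.223 between IGFBP3 and IGFBP7. In MDA-MB-231 IGFBP4 and IGFBP6 had an r of 0.809 and IGFBP3 and IGFBP7 one of 0.738. Genes among those most like IGFBP3 over the MCF10A libraries were RTN4RL1 (r = 0.968) and B3GNT9 (r = 0.958). These coefficients describe libraries that share treatments, fractions and scaling, and no p is attached to them.

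The rest of the IGF pathway was described from lists of its ligands, receptors, substrates, proteases and related genes. Of the ligands, IGF2 alone passed the filter in each line (1 of 3). By edgeR 0 of 6 tests against normoxia were called in either line, with 0 and 2 at an unadjusted p under 0.05 in MCF10A and MDA-MB-231. Over the same contrasts the share of all genes called ran from 0.648% to 22.2% in MCF10A and from 0.555% to 19.4% in MDA-MB-231. The change of IGF2 in hypoxia in polysomal mRNA was 1.48 (SE 0.85, adjusted p = 0.552) in MCF10A and 1.78 (SE 0.78, adjusted p = 0.261) in MDA-MB-231. Of the receptors, 3 of 4 were tested in each line and 0 of 18 tests were called, with 1 and 3 at an unadjusted p under 0.05. The shares of all genes called were those given for the ligands, 0.648% to 22.2% in MCF10A and 0.555% to 19.4% in MDA-MB-231. IGF2R, which clears IGF2 from the cell surface, had a change of 0.78 (SE 0.27, adjusted p = 0.0535) with both treatments in polysomal mRNA of MDA-MB-231.

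Among 10 of 11 receptor substrates and adaptors tested in MCF10A, 1 rose and 2 fell with both treatments in either fraction, beside 14.9% of all genes called in total and 22.2% in polysomal mRNA, with a median change of −0.49 in total mRNA beside −0.01 over all genes and of −0.01 in polysomal mRNA beside −0.04. IRS2, the substrate that couples the receptors to PI3-kinase, had 24.1 and 38.2 CPM in normoxic polysomal mRNA and 145 and 284 CPM with both, a log2 change of 2.79 (SE 0.51, adjusted p = 0.00342). GRB10, an adaptor that restrains the receptors, had 13.2 and 15.7 CPM in normoxic total mRNA and 3.62 and 3.63 CPM with both, a log2 change of −1.99 (SE 0.29, adjusted p = 0.0012). PIK3R3, a regulatory subunit of PI3-kinase, also fell with PP242 alone, from 5.82 and 5.67 CPM to 1.40 and 0.586 CPM in total mRNA (−2.50, SE 0.44, adjusted p = 0.0318). In MDA-MB-231, 10 of 11 were tested and 1 fell in total mRNA with both, again PIK3R3 (−0.98, SE 0.20, adjusted p = 0.00752), while in polysomal mRNA 1 rose and 1 fell. PIK3CA, the catalytic subunit, was the one that rose (0.67, SE 0.16, adjusted p = 0.012).

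Proteases that cut binding proteins, with their inhibitors, rose in both lines where they were called. In MCF10A 12 of 16 were tested, and 4 rose and 0 fell with both treatments in either fraction, beside 14.9% of all genes called in total and 22.2% in polysomal mRNA. Their median change was 0.89 in polysomal mRNA beside −0.04 over all genes. They hold opposite roles, since STC1 and STC2, the stanniocalcins, inhibit the protease PAPPA and PLAT, tissue plasminogen activator, and ADAM12 are proteases. STC2 had 81.5 and 95.3 CPM in normoxic total mRNA and 362 and 359 CPM in hypoxia (2.03, SE 0.26, adjusted p = 0.0019). STC1 rose from 7.60 and 9.15 CPM to 61.3 and 45.2 CPM (2.67, SE 0.40, adjusted p = 0.00592). PLAT had 21.1 and 26.0 CPM in normoxic polysomal mRNA and 129 and 214 CPM with both (2.86, SE 0.29, adjusted p = 0.000154), and ADAM12 rose by 2.64 (SE 0.61, adjusted p = 0.0104). The groups did not overlap in the values given for STC2, STC1 and PLAT. In MDA-MB-231 13 of 16 were tested, and 3 rose in total and 4 in polysomal mRNA with both while 0 fell, beside 13.2% and 19.4% of all genes called, with a polysomal median of 0.31 beside 0.01. They included MMP1, an interstitial collagenase, at 317 and 349 CPM in normoxic polysomal mRNA and 886.5 and 906 CPM with both (1.43, SE 0.18, adjusted p = 0.000126), and PLAT (2.42, SE 0.45, adjusted p = 0.00252).

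Partners and receptors of the binding proteins showed the same direction where they were called. With both treatments 2 of 5 tested rose in each fraction in MCF10A, and 1 in total and 2 in polysomal mRNA in MDA-MB-231, with 0 falling. All genes were called at 14.9% and 22.2% in MCF10A and at 13.2% and 19.4% in MDA-MB-231, and the polysomal medians of the list were 1.09 and 0.64 beside −0.04 and 0.01. LRP1, a scavenger receptor known to bind IGFBP3, had 25.1 and 44.5 CPM in normoxic polysomal mRNA of MCF10A and 120 and 243 CPM with both (2.38, SE 0.48, adjusted p = 0.0053). ITGA5, the integrin subunit that IGFBP1 binds, rose by 1.77 (SE 0.35, adjusted p = 0.00514) there and by 0.80 (SE 0.19, adjusted p = 0.012) in total mRNA of MDA-MB-231.

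Other secreted proteins that carry an IGFBP domain were called in both directions in MCF10A. Of 7 tested out of 11, 3 rose and 1 fell with both treatments in polysomal mRNA, where 22.2% of all genes were called, with a median change of 1.68 beside −0.04. WISP2 rose in hypoxia alone (total mRNA, 2.24, SE 0.46, adjusted p = 0.0358), and CTGF, a matricellular protein (1.68, SE 0.48, adjusted p = 0.0285), and ESM1, a proteoglycan of endothelium (1.84, SE 0.44, adjusted p = 0.0127), rose with both in polysomal mRNA. HTRA3 had 18 to 21 counts in the normoxic libraries and 0 in all 4 libraries with both, so it was at least 4.39-fold lower in total mRNA and at least 4.33-fold in polysomal mRNA against a floor of 3 counts per library. In MDA-MB-231 1 of 8 tested was called in either fraction, near the 13.2% of all genes in total mRNA and below the 19.4% in polysomal mRNA. It was NOV (total mRNA, 1.05, SE 0.33, adjusted p = 0.0497).

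Of the transcription factors known to act on IGFBP genes, 14 of 16 were tested in MCF10A and 15 of 16 in MDA-MB-231, and their calls with both treatments were no more frequent than among all genes in MCF10A. There 2 fell and 0 rose in polysomal mRNA, beside 22.2% of all genes called, and in MDA-MB-231 2 rose and 1 fell, beside 19.4%. In MCF10A CEBPA, a factor of differentiated cells, fell with both treatments in polysomal mRNA (−3.01, SE 0.87, adjusted p = 0.0291, on 5 to 46 counts in the libraries compared). In MDA-MB-231 HIF1A, the oxygen-regulated subunit of HIF-1, had 265 and 204 CPM in normoxic total mRNA and 83.7 and 73.7 CPM in hypoxia, a log2 change of −1.58 (SE 0.19, adjusted p = 0.000304). Its hypoxic libraries lay below all normoxic ones in both fractions. FOXO4 rose by 0.98 (SE 0.29, adjusted p = 0.0271) with both in polysomal mRNA there.

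**Figure D5:**
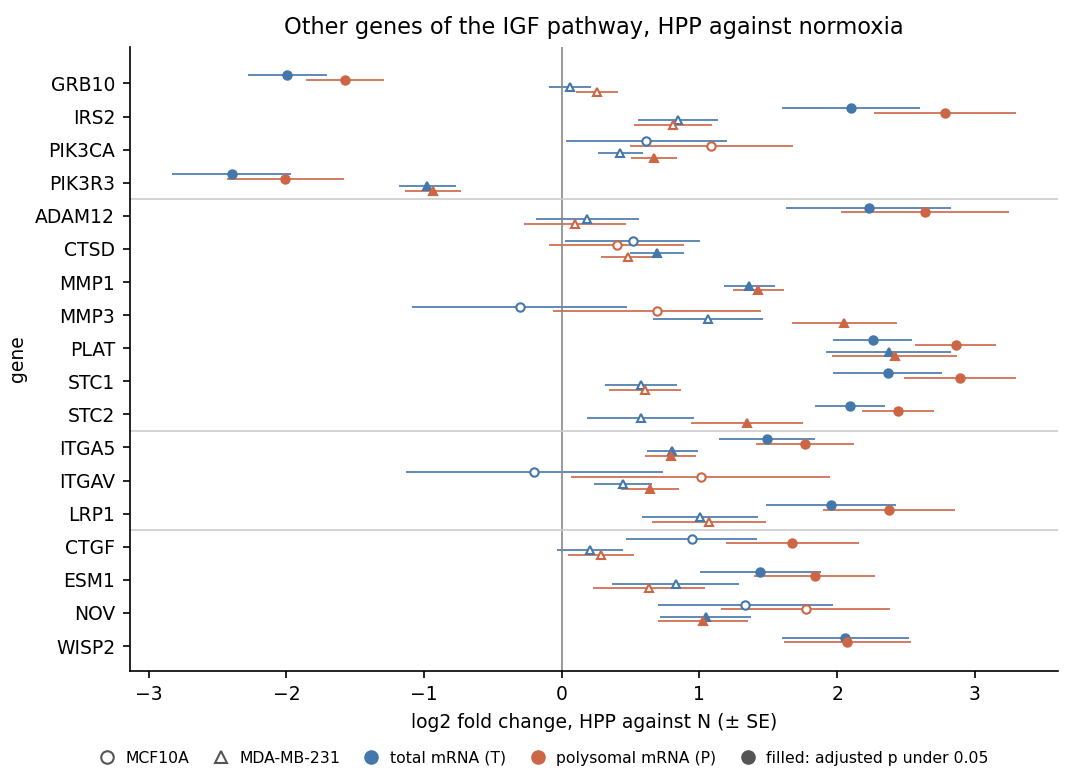
Log2 fold change in hypoxia with PP242 against normoxia, with SE, of the named substrates and adaptors, proteases and inhibitors, partners and IGFBP-domain genes in polysomal and total mRNA of both lines, with filled points for adjusted p under 0.05. The proteases and PAPPA inhibitors that were called lie to the right of 0 in both lines, and HTRA3 is left out because its combined-treatment libraries had 0 counts.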

How the data were processed

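Total and polysome-bound mRNA of MCF10A and MDA-MB-231 had been prepared with a poly(A) TruSeq RNA v2 kit and sequenced as paired-end reads. The authors' methods name mapping to GRCh38 with STAR 2.5.1b and GENCODE 24 and gene quantification with RSEM 1.2.28, whereas the submitters' processing notes name GRCh37. No coordinate was taken from the files. The deposited values are RSEM expected counts per gene, given as whole numbers for 60554 genes without normalisation, so rounding changed nothing, and 0 columns lacked a sample. Of each library's counts, 97.4% to 99.2% fell on protein-coding genes. Depth had a median of 34561484 counts, and the floors cover counting error only. The intervals given for changes come from the edgeR fit and also include the spread between replicate libraries.

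The tools were edgeR 4.0.16 and R 4.3.3. The 16 libraries of a line were fitted together in 8 groups (8 residual degrees of freedom), restricted to protein-coding genes, filtered by filterByExpr and scaled by TMM. Each contrast used the quasi-likelihood F test with Benjamini-Hochberg adjustment over all genes and a threshold of 0.05. A change in Te was the interaction term between fraction and treatment. Lines were compared in a joint fit of 32 libraries, over 14298 genes. The common biological coefficient of variation, 0.150 for MDA-MB-231 and 0.325 for MCF10A, let smaller changes be called in the former. Two-sided permutation tests on groups of 2 cannot give a p below 0.333 and are left out. The p-values rest on the spread between the 2 replicate libraries of a group, pooled over all groups of a fit, both fractions included. They do not measure the spread of the libraries compared alone. Total and polysomal libraries that share a title number were counted as separate.

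The scripts were tested on simulated data. Alternatives were no filter on low counts, RLE size factors, DESeq2 1.42.0, a fit of only the libraries compared, all gene classes, an adjusted p under 0.10, the replicate number as a block, the z-score rule for Te, and each library left out. Deviations of same-numbered MCF10A total libraries correlated at 0.283 to 0.778 in all 6 pairs of groups, and those of the polysomal libraries exceeded 0.1 in 3 of 6. In MDA-MB-231 4 of 6 did so in either fraction. Replicate numbers were therefore taken to pair the MCF10A total libraries alone, and this was used only to judge calls gained in the fit with a block. The main tests had no replicate block in either line.

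The 7 members and the pathway lists were chosen with earlier results of these data known. All 7 members were named in each comparison, and of each pathway list up to 4 genes per line with the lowest p in any treatment contrast. Levels of named genes are CPM with TMM scaling, and lengths are those of GENCODE v44. Likeness to IGFBP3 was ranked by Pearson's r of log2 CPM, and 3 genes were kept. Some results are not reported here.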

Additional observations from a re-analysis of the deposited data

Results flagged for a closer look

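The effect of treatment on IGFBP3 differed between the lines in 4 tests, which were the calls among 24 tests of the 4 members measured in both lines. The tests were made in the joint fit by edgeR's quasi-likelihood test with Benjamini-Hochberg adjustment. Taken as the log2 change in MDA-MB-231 minus that in MCF10A, the difference in hypoxia was −1.65 in total mRNA and −1.74 in polysomal mRNA, and with PP242 it was 1.61 in total mRNA and 1.59 in polysomal mRNA. Both MCF10A hypoxic libraries lay above both normoxic ones in each fraction, and both PP242 libraries lay below them, and the MDA-MB-231 libraries did so by smaller amounts. No group held more than 2 libraries, so no single sample could be tested as far from the rest of its group.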

How the results depend on the processing

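With 2 libraries per group, single libraries decided many calls. In MCF10A, 5 calls against normoxia became 8 with the replicate block within each fraction and 2 to 6 when 1 library was left out. The replicate block changed no other count of calls by over 1.5 times. The 4 calls of the combination against either treatment alone became 2 in a fit of only the libraries compared, and 3 to 4 with 1 library left out. In MDA-MB-231 the 1 call of this kind, IGFBP1, became 2 without the filter on low counts, and 0 to 1 with 1 library left out. The 2 members higher in polysomal mRNA in MDA-MB-231 became 1 in a fit of only the libraries compared, and 0 to 2 with 1 left out. The 4 differences in response between the lines became 2 with all gene classes, 1 in a fit of only the libraries compared, and 1 to 4 with 1 left out. The 8 calls between the lines in normoxia, the 0 calls for Te and the 0 calls against normoxia in MDA-MB-231 were the same under every alternative run. For Te the alternatives include the z-score rule, which could not have called a member in MDA-MB-231. No called value changed sign. Of 168 uncalled member comparisons, 6 were called under some setting.

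A fit of only the libraries compared has fewer residual degrees of freedom. IGFBP1, IGFBP2 and IGFBP5 in MCF10A and IGFBP2 in MDA-MB-231 were tested only without the filter, at counts too low to set a useful limit. There IGFBP5 was called in polysomal MCF10A mRNA with both treatments against normoxia (adjusted p = 0.0388), on 147 counts in 1 library and 0 in the other 3.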

Other observations

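IGFBP5 had 147 counts (3.31 CPM) in the polysomal MCF10A library of hypoxia with PP242, replicate 2, against at most 1 count in the other 15 MCF10A libraries. Genes with at least 50 counts in 1 library and at most 1 in each of the other 15 of its line numbered 4 in this library, IGFBP5, UGT1A6, NPTX2 and PTGDS. One more was found in a polysomal PP242 library of MCF10A, and 0 in the other 30 libraries of the series. These genes were chosen after their values were seen.

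IGFBPL1, a gene with an IGFBP domain outside the family of 7, had 0 counts in all MCF10A libraries and 176 to 593 counts in those of MDA-MB-231.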
